A study of Arabidopsis thaliana with 18 samples.

Results

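Transcript levels of 8 Arabidopsis thaliana genes were followed across 18 libraries. Of these, 6 encode enzymes of chlorophyll breakdown, namely NYE1 (AT4G22920), NYE2 (AT4G11910), NYC1 (AT4G13250), PPH (AT5G13800), PAO (AT3G44880) and RCCR (AT4G37000). The other 2, SAG12 (AT5G45890) and SAG13 (AT2G29350), are used as markers of leaf senescence. They were taken by locus identifier, not by a rule on their values, though earlier results of these data were known. The table held 33082 genes, of which 21727 reached 1 TPM (a unit that counts transcripts per gene length as a share of the library) in 3 or more libraries and were tested. All 8 passed this filter, but SAG12 reached 1 TPM in 4 libraries, all from stressed wild-type plants, so it passed only through the groups where it is high, and its levels are described with no test. The plants were Col-0 seedlings aged 9 days, grown on vertical plates. They were bon123t or wild type (WT). The series title calls the mutant line a bon123 triple mutant, and BON1, BON2 and BON3 encode copines, which are calcium-dependent membrane-binding proteins. The labels do not explain the letter t. Each genotype received 100 µM abscisic acid (ABA, a hormone of drought and seed maturation), 300 mM mannitol (an osmoticum that withdraws water) or a mock treatment on 1/2 MS medium. The 6 groups of bon123t ABA, bon123t mannitol, bon123t mock, WT ABA, WT mannitol and WT mock held 3 libraries each. The sample labels state 12 h of treatment and the series text 24 h, so the duration is uncertain.

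Chlorophyll is dismantled in a fixed order when leaves senesce. The chlorophyll b reductase NYC1 turns chlorophyll b towards chlorophyll a, the magnesium dechelatases NYE1 and NYE2 (also called STAY-GREEN) pull out the magnesium, and the esterase PPH removes the phytol tail. The oxygenase PAO then opens the ring and the reductase RCCR takes up its product, after which the colourless catabolites go to the vacuole. ABA is known to hasten leaf yellowing, through ABF, NAC and ethylene-pathway transcription factors that act on several of these genes.

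The libraries summed to between 999989 and 999999 TPM, and read depth cannot be known from TPM, so the precision rests on the spread between libraries. The standard errors below rest on 1 spread per gene, shared by the 6 groups and 18 libraries. They do not measure the spread of the compared groups alone. BON1 lay at 0.25 to 1.66 TPM in bon123t and 10.1 to 18.3 TPM in WT, and BON2 at 2.85 to 16.2 TPM in bon123t and 21.3 to 36.3 TPM in WT. BON3 was at or below 0.75 TPM in bon123t and 0.17 TPM in WT. The third bon123t ABA library stood apart, its median-of-ratios size factor being 0.646 where the others of its group had 0.872 and 0.823. Ribosomal RNA made up 5.90% to 10.1% of the bon123t mannitol libraries and 6.10% of the first WT mock library, and 0.475% to 2.21% of the rest. Markers of green shoot tissue differed widely by genotype. The sum of 7 such genes, none of them at 0 in any library, was 135 to 188 TPM in bon123t ABA, 877 to 997 TPM in bon123t mannitol and 914 to 1333 TPM in bon123t mock. In WT it was 25027 to 29814 TPM after ABA, 17119 to 23189 TPM after mannitol and 38673 to 41431 TPM after mock. Sums of 8 root markers in bon123t were 82.9 to 90.1 TPM after ABA, 180 to 244 after mannitol and 99.3 to 137 after mock. In WT they were 39.3 to 68.7 TPM after ABA, 69.3 to 175 after mannitol and 89.7 to 151 after mock. The genotypes thus overlapped in mock, whereas after ABA and after mannitol every bon123t sum was above every WT sum of that treatment. All 7 shoot markers were lower in bon123t than in WT in every treatment. What part the shoot and root differences have in the genotype differences below was not tested. In bulk samples, fewer cells of a type and less RNA per cell cannot be told apart.

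**Figure D1:**
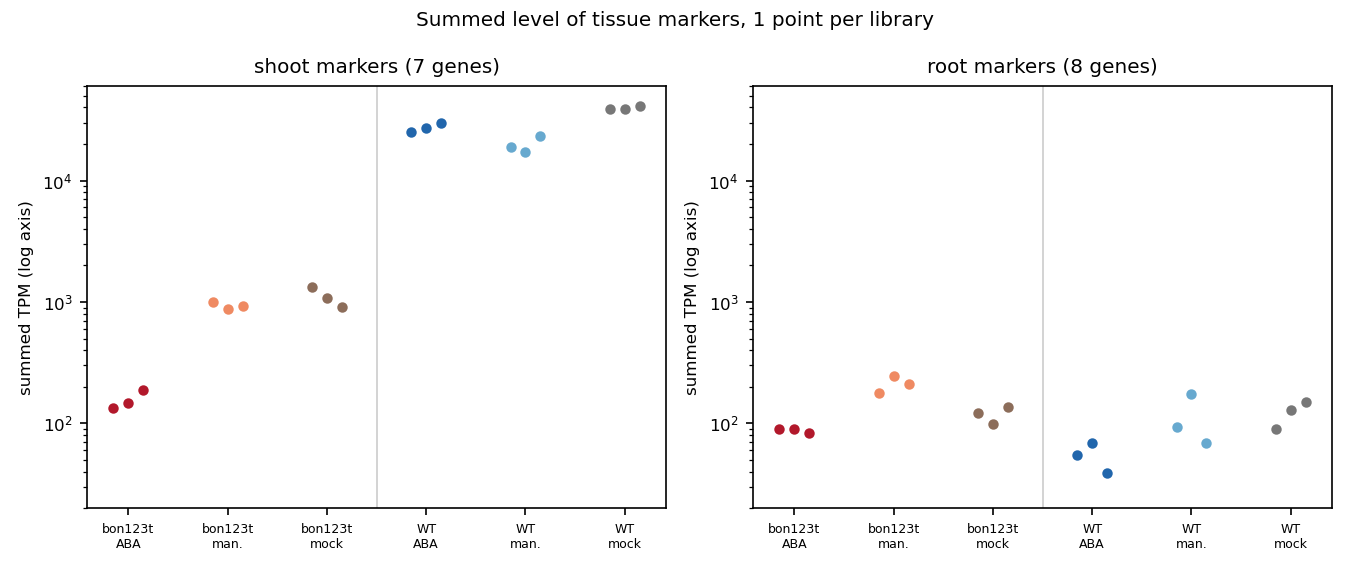
Summed TPM of 7 shoot marker genes (left) and 8 root marker genes (right) on a log axis, 1 point per library, by group. The bon123t libraries lie at 135 to 1333 TPM of shoot markers, below all WT libraries at 17119 TPM or more. The root sums of the genotypes overlap in mock, while after ABA and after mannitol those of bon123t lie above those of WT.

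In WT, ABA and mannitol each gave called rises in 5 of the 6 enzyme genes, all but RCCR. In bon123t ABA gave called rises in those 5 and mannitol in 0. A gene was called where limma's adjusted p was under 0.05. Leaving SAG12 aside, ABA in bon123t raised 5 of 7 genes and lowered RCCR, while 15.1% of all tested genes were called higher and 55.5% lower. Mannitol in bon123t raised 0 of 7 and lowered 4 (NYE1, NYC1, PPH and PAO), against 12.6% and 48.8% of all genes, the fall of NYE1 turning to 0.020 with median-of-ratios scaling and 0.034 with upper-quartile scaling. ABA in WT raised 6 of 7 and lowered 0 (18.9% and 30.6% of all genes). Mannitol in WT also raised 6 of 7 and lowered 0 (25.5% and 25% of all genes). RCCR was the gene not called in WT after either treatment. After mannitol, however, every WT library had more RCCR than every WT mock library. That rise of 0.76 was called in a fit of its own groups (adjusted p = 0.000953). The median log2 fold change of the 7 genes was 1.91 for ABA in bon123t, -0.48 for mannitol in bon123t, 1.72 for ABA in WT and 1.97 for mannitol in WT. Over all genes tested these medians were -0.51, -0.36, -0.11 and 0.02. SAG12 is described with SAG13 below.

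The median gene had a negative log2 fold change in the stressed mutant, so scaling moved values most there. Calls were rises in 21.4% of cases after ABA and 20.6% after mannitol in bon123t, and in 49.0% and 51.3% once libraries were scaled by median of ratios. That scaling moved the median gene by 0.49 after ABA and 0.37 after mannitol in bon123t. Under it NYC1, PPH and PAO still fell after mannitol, by less (-0.28, -0.48 and -0.57), whereas NYE1 was not called (adjusted p = 0.913) and NYE2 passed as a rise of 0.71 (adjusted p = 0.00116).

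**Figure D2:**
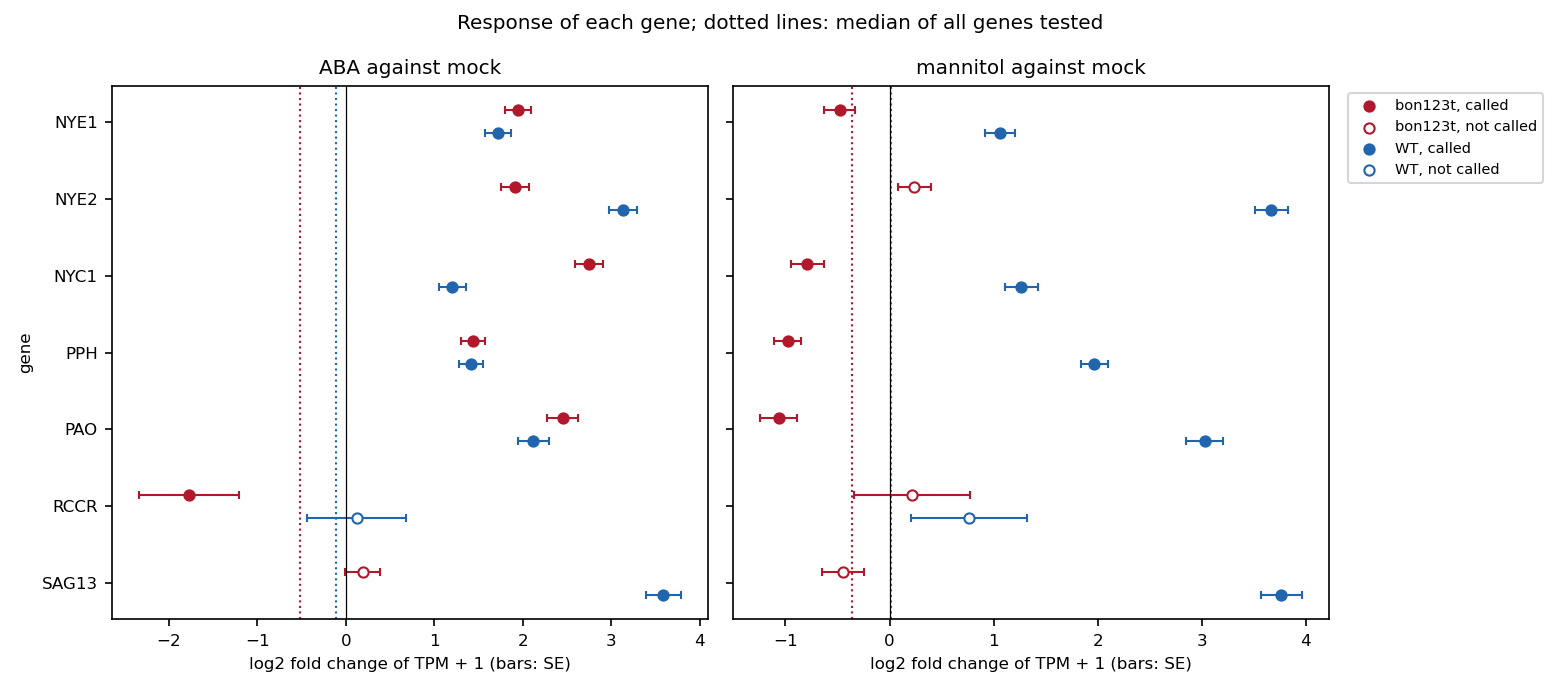
Log2 fold change of TPM + 1 against mock for ABA (left) and mannitol (right), bon123t above WT for each gene. Bars are standard errors, filled points are called and dotted lines are medians of all genes tested. After mannitol the WT points of NYE1, NYE2, NYC1, PPH, PAO and SAG13 lie at 1.06 or more, and the bon123t points of all genes at or below 0.24. SAG12, at 0 in both mock groups, is not drawn.

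NYE1, the main magnesium dechelatase of senescing leaves, reached its highest level in the mutant after ABA. It had 177, 193 and 146 TPM in bon123t ABA, 33.9, 29.6 and 29.4 TPM in bon123t mannitol and 42.7, 46.6 and 41.4 TPM in bon123t mock. WT libraries had 92.4, 60.6 and 76.8 TPM after ABA, 47.8, 52.8 and 42.5 TPM after mannitol and 18.9, 24.6 and 23.7 TPM after mock. All mutant ABA libraries were above all others, WT mannitol overlapped bon123t mock, and every WT mock library was below every other group. Against mock, ABA raised NYE1 by 1.95 ± 0.15 (log2, SE, adjusted p = 7.86e-09) in bon123t and by 1.72 ± 0.15 (adjusted p = 1.45e-07) in WT. Mannitol lowered it in bon123t (-0.48 ± 0.15, adjusted p = 0.0104, but 0.020 and 0.034 with the 2 scalings) and raised it by 1.06 ± 0.15 (adjusted p = 2.02e-05) in WT. Against WT, bon123t was higher by 0.94 in mock (adjusted p = 2.88e-05) and by 1.17 after ABA, and lower after mannitol (-0.61, adjusted p = 0.00159). The mannitol difference missed the threshold with median-of-ratios scaling (-0.21, adjusted p = 0.157) and upper-quartile scaling (-0.22, adjusted p = 0.116).

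NYE2, the second dechelatase, shares 79.6% of 783 aligned coding bases with NYE1, with a longest identical run of 28 bases. It had 50.4, 52.7 and 47.8 TPM in bon123t ABA, 14.5, 16.1 and 14.8 TPM in bon123t mannitol and 13.0, 12.6 and 12.5 TPM in bon123t mock. WT libraries had 24.3, 15.7 and 25.3 TPM after ABA, 31.3, 33.5 and 29.2 TPM after mannitol and 1.01, 1.75 and 1.96 TPM after mock. The 3 WT mock libraries stood far below all the rest, and WT ABA overlapped bon123t mannitol. ABA raised NYE2 by 1.91 ± 0.16 (adjusted p = 2.22e-08) in bon123t and by 3.13 ± 0.16 (adjusted p = 3.71e-10) in WT. Mannitol gave 0.24 ± 0.16 (adjusted p = 0.209) in bon123t and a rise of 3.67 ± 0.16 (adjusted p = 8.22e-11) in WT. The bon123t value passed in a fit of its own groups (adjusted p = 0.0212), with median-of-ratios scaling (0.71, adjusted p = 0.00116) and with upper-quartile scaling (0.73, adjusted p = 0.000804). In mock plants bon123t exceeded WT by 2.43 ± 0.16 (adjusted p = 8.98e-10), and after ABA by 1.20 (adjusted p = 3.35e-06), while after mannitol it was lower (adjusted p = 3.05e-05). The ratio of NYE1 to NYE2 in TPM was 3.05 to 3.66 in bon123t ABA, 1.83 to 2.33 in bon123t mannitol, 3.28 to 3.69 in bon123t mock, 3.04 to 3.87 in WT ABA and 1.46 to 1.58 in WT mannitol. In WT mock it was 12.1 to 18.7, so the unstressed WT was the group in which NYE1 prevailed most.

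The upstream sequences of NYE1 and NYE2 are shown because ABA-regulated bZIP proteins and PIF proteins are known to bind G-box and ACGTG elements of senescence genes. Both strands were searched for ACGTG (the core of the ABA-responsive element), CACGTG (the G-box, which contains it) and TTGAC (the core of the W-box of WRKY proteins) in the 250 bases before each start in the RefSeq annotation of TAIR10.1. Of 27443 such windows of protein-coding genes, 22.9% held ACGTG, 6.49% CACGTG and 44.9% TTGAC. Of the 8 genes, 2 held ACGTG (NYE2 and SAG13), 1 held CACGTG (NYE2) and 3 held TTGAC (NYE2, NYC1 and SAG13). In the lines that follow capitals mark ACGTG or CACGTG and TTGAC on either strand. NYE2 is the whole window at chr4:7155900-7156149 on the plus strand. NYE1 is the 150 bases nearest its start, chr4:12018644-12018793 on the minus strand, and holds none of them.
NYE2: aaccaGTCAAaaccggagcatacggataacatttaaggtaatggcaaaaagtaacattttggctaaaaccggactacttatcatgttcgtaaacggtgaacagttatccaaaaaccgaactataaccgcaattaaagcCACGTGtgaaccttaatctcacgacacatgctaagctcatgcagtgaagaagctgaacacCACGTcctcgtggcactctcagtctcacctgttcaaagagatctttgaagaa
NYE1: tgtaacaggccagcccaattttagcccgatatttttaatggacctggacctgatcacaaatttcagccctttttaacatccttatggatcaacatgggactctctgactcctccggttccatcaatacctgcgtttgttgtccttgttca
In NYE2 the G-box lies 112 to 107 bases and a further CACGT 52 to 48 bases before the start. These are matches of letters only, and binding was not measured.

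**Figure D3:**
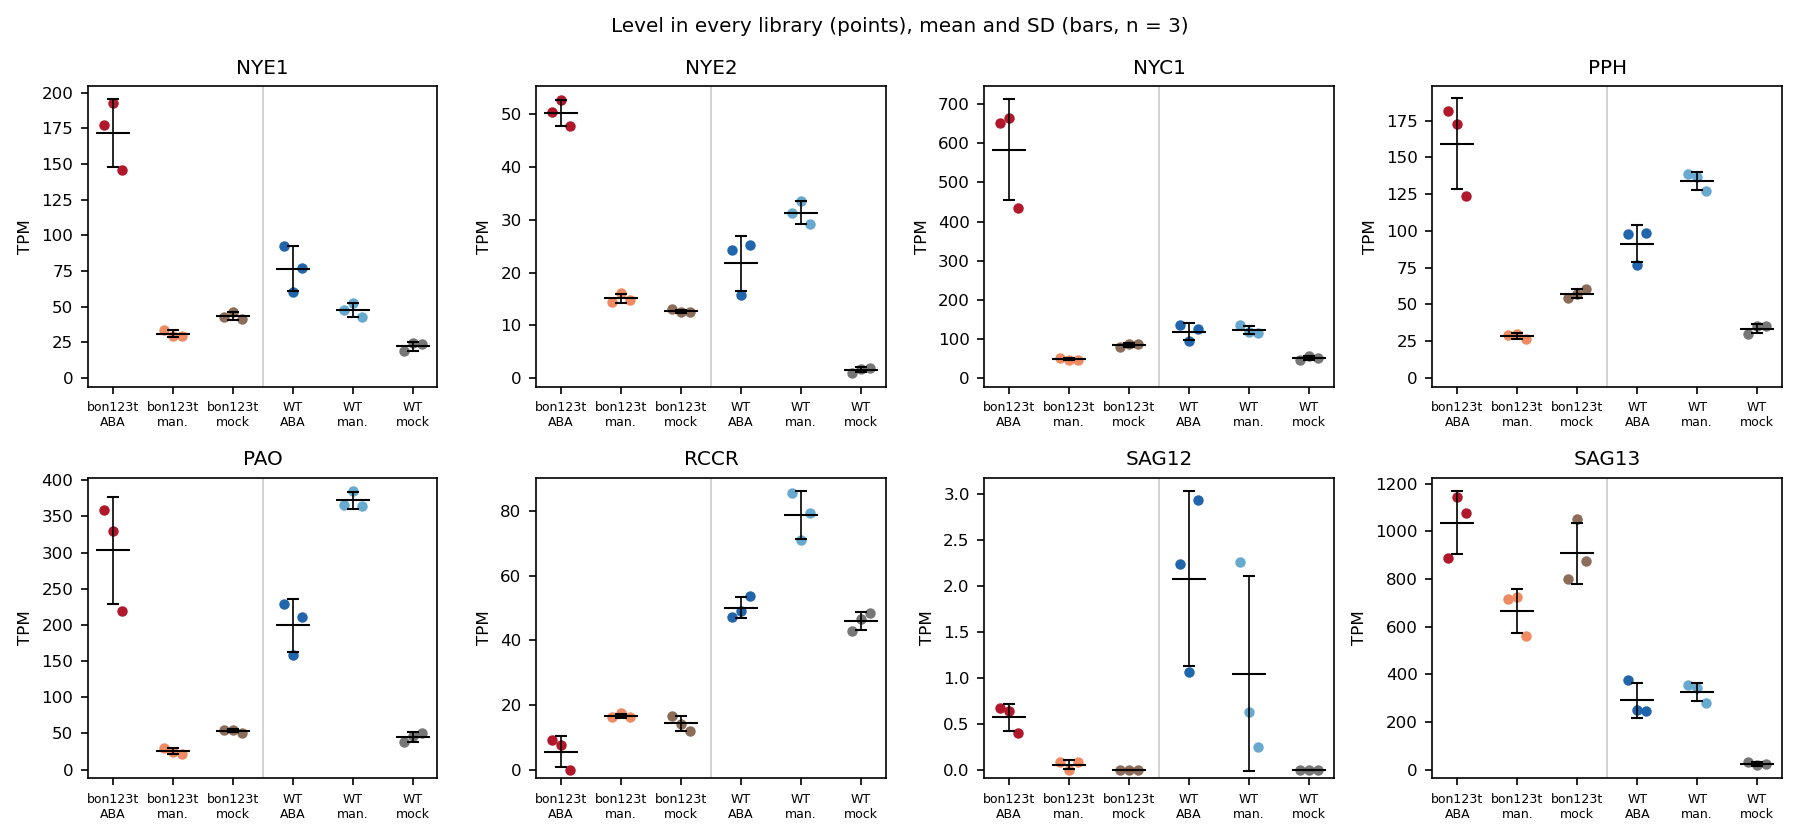
TPM of each of the 8 genes in every library (points), with mean and SD of the 3 libraries (bars), bon123t groups left of WT groups. In these deposited values NYE1, NYE2, NYC1 and PPH have their highest mean in bon123t ABA, PAO (by a small margin) and RCCR in WT mannitol, SAG12 in WT ABA, and SAG13 is above 558 TPM in every bon123t library.

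NYC1, the chlorophyll b reductase that opens the pathway, showed the largest log2 rise in the mutant after ABA among the genes other than SAG12. It had 651, 665 and 435 TPM in bon123t ABA, 52.1, 47.1 and 46.2 TPM in bon123t mannitol and 80.1, 87.6 and 85.8 TPM in bon123t mock. WT libraries had 136, 94.2 and 126 TPM after ABA, 136, 119 and 115 TPM after mannitol and 45.5, 56.0 and 50.1 TPM after mock. The mutant ABA libraries were thus at 435 TPM or more and all other libraries at 136 TPM or less, while WT ABA overlapped WT mannitol and bon123t mannitol overlapped WT mock. ABA raised NYC1 by 2.75 ± 0.16 (adjusted p = 2.87e-10) in bon123t and by 1.20 ± 0.16 (adjusted p = 1.2e-05) in WT. The interaction, the response of bon123t minus that of WT, was 1.55 ± 0.22 (adjusted p = 2.97e-05), and 9.51% of all genes had an interaction called higher and 43% one called lower. Mannitol lowered NYC1 in bon123t (-0.79, adjusted p = 0.000409), by less with median-of-ratios scaling (-0.28, adjusted p = 0.0488) and without a call with upper-quartile scaling (-0.27, adjusted p = 0.0626), and raised it by 1.27 (adjusted p = 5.8e-06) in WT. Its level in bon123t against WT was higher by 0.73 in mock (adjusted p = 0.000506) and by 2.28 after ABA (adjusted p = 1.26e-09), and lower after mannitol (-1.32).

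PPH, the pheophytin esterase, and PAO, the oxygenase that opens the ring, moved together across libraries (Pearson r of log2 values 0.97 over 18 libraries, a description). PPH had 181, 173 and 124 TPM in bon123t ABA, 29.6, 30.0 and 26.3 TPM in bon123t mannitol and 54.3, 57.3 and 60.5 TPM in bon123t mock. WT libraries had 98.2, 76.8 and 98.8 TPM after ABA, 138, 136 and 127 TPM after mannitol and 29.9, 35.2 and 35.6 TPM after mock. In WT mannitol therefore gave more PPH than ABA, while in bon123t mannitol took it below mock in every library. ABA raised PPH by 1.44 ± 0.13 (adjusted p = 8.32e-08) in bon123t and by 1.41 ± 0.13 (adjusted p = 4.21e-07) in WT, and the interaction was 0.03 (adjusted p = 0.917). Scaling by median of ratios turned that interaction into a call (0.64, adjusted p = 0.000923), as did upper-quartile scaling (0.49, adjusted p = 0.00658). Mannitol lowered PPH in bon123t (-0.98, adjusted p = 1.33e-05) and raised it by 1.97 (adjusted p = 9.15e-09) in WT. Against WT, bon123t had more PPH in mock (0.76, adjusted p = 8.48e-05) and after ABA (0.79, adjusted p = 5.27e-05) and less after mannitol (-2.19, adjusted p = 4.56e-10).

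PAO had 359, 329 and 219.8 TPM in bon123t ABA, 30.0, 23.8 and 21.9 TPM in bon123t mannitol and 54.5, 55.1 and 51.0 TPM in bon123t mock. WT libraries had 229, 159 and 211 TPM after ABA, 366, 385 and 365 TPM after mannitol and 37.8, 46.7 and 50.8 TPM after mock. In deposited TPM, WT mannitol was the highest group, by a small margin over bon123t ABA, and bon123t mannitol the lowest. The order of the top pair turned with median-of-ratios scaling, where the mean log2 level was 8.59 ± 0.15 in bon123t ABA and 8.33 ± 0.09 in WT mannitol (SD, n = 3 each), and with upper-quartile scaling the means were 8.44 and 8.43. ABA raised PAO by 2.45 ± 0.18 (adjusted p = 4.13e-09) in bon123t and by 2.12 ± 0.18 (adjusted p = 9.97e-08) in WT. The interaction with ABA was 0.33 (adjusted p = 0.276), and it passed without the third bon123t ABA library (0.55, adjusted p = 0.0367) and with median-of-ratios scaling (0.94, adjusted p = 0.00119). Mannitol lowered PAO in bon123t (-1.06, adjusted p = 8.37e-05) and raised it by 3.03 (adjusted p = 1.77e-09) in WT. After mannitol PAO was therefore 3.84 lower on the log2 scale in bon123t than in WT (-3.84 ± 0.18, adjusted p = 1.33e-11). In mock plants the genotypes differed by 0.25 (adjusted p = 0.206). After ABA bon123t was higher by 0.59 (adjusted p = 0.00647), although the libraries overlapped and the call was lost in a fit of those groups alone (adjusted p = 0.0575). Scaling enlarged that difference to 1.01 (adjusted p = 5.85e-06) by median of ratios and 0.84 (adjusted p = 4.44e-05) by upper quartile.

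RCCR, the reductase that follows PAO, was lower in bon123t than in WT in every treatment. It had 9.17, 7.56 and 0 TPM in bon123t ABA, 16.2, 17.5 and 16.2 TPM in bon123t mannitol and 16.6, 14.2 and 12.0 TPM in bon123t mock. WT libraries had 47.3, 49.1 and 53.7 TPM after ABA, 85.7, 71.1 and 79.4 TPM after mannitol and 42.9, 46.5 and 48.3 TPM after mock. Every mutant library was below every WT library, and mutant ABA libraries were below all others. Against WT, bon123t was lower in mock (-1.63 ± 0.56, adjusted p = 0.0157), after ABA (-3.52, adjusted p = 2.73e-05) and after mannitol (-2.18, adjusted p = 0.0024). Against mock, ABA lowered RCCR in bon123t (-1.77, adjusted p = 0.0101) and gave 0.12 in WT (adjusted p = 0.888), and mannitol gave 0.22 in bon123t (adjusted p = 0.763) and 0.76 in WT (adjusted p = 0.279).

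The RCCR calls above held without the third bon123t ABA library, listed at 0, while other RCCR values gained a call. That library listed 33 of 12023 genes at 0 that had 5 TPM or more in both other libraries of its group, and the other libraries listed 4 to 24 such genes. Without it RCCR still fell after ABA in bon123t, by less (-0.70, adjusted p = 9.48e-05), and lay lower than WT after ABA (-2.45, adjusted p = 6.65e-11). Without it the WT rise after mannitol of 0.76 passed (adjusted p = 2.48e-05), as did the interactions with ABA (-0.82, adjusted p = 0.000568) and mannitol (-0.55, adjusted p = 0.00514). The WT rise also passed in a fit of its own groups (adjusted p = 0.000953). The interaction with ABA, -1.90 over all libraries (adjusted p = 0.0557), also passed without the first (-2.50, adjusted p = 0.00909) or the second (-2.37, adjusted p = 0.0205) bon123t ABA library. The fall after ABA missed the threshold with median-of-ratios scaling (-1.34, adjusted p = 0.0605) and in a fit of its own groups (adjusted p = 0.13). With a pseudocount of 0.1 the genotype differences in mock (-1.69, adjusted p = 0.18) and after mannitol (-2.24, adjusted p = 0.0787) also missed it. RCCR overlaps CEN2 (AT4G37010), a centrin gene on the same strand, by 167 bases, and reads in the overlap cannot be told apart. CEN2 was at 126 to 479 TPM in bon123t and 13.6 to 52.3 TPM in WT, the opposite of RCCR, and its part in the RCCR values was not tested.

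**Figure D4:**
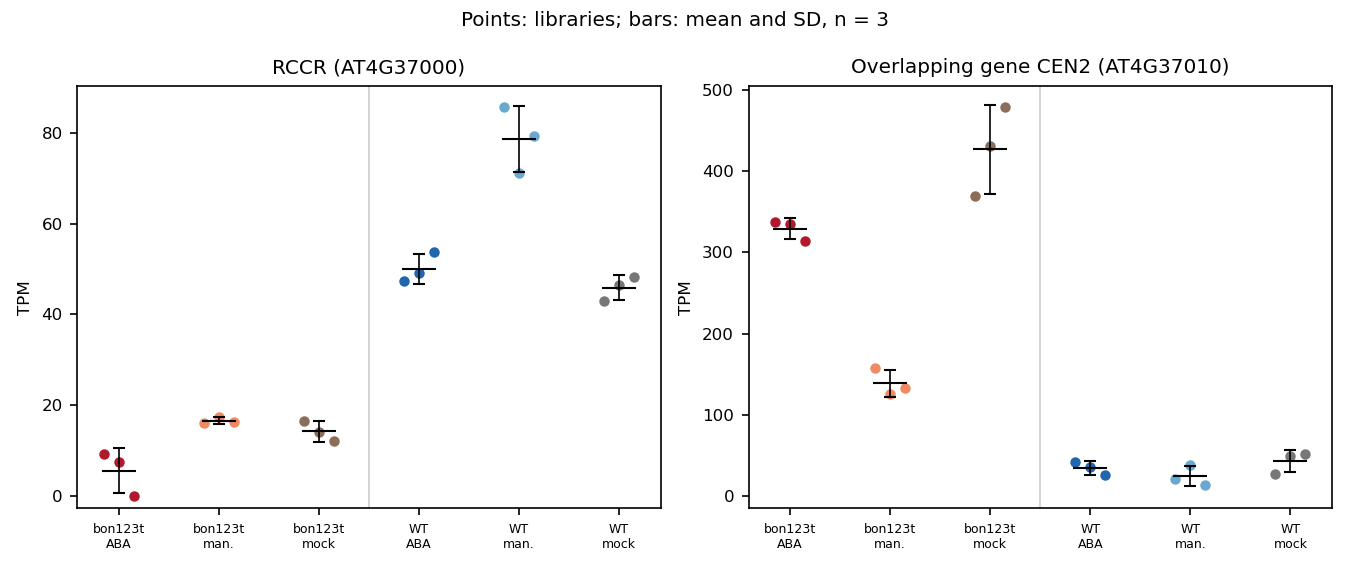
TPM of RCCR (left) and of the overlapping gene CEN2 (right) in every library, with mean and SD. RCCR is at 17.5 TPM or less in bon123t and at 42.9 TPM or more in WT, whereas CEN2 is at 126 TPM or more in bon123t and at 52.3 TPM or less in WT.

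TPM is scaled by transcript length, so levels of the 6 enzymes can be summed and compared within a library. Their sum was 1274 ± 262 TPM (SD, n = 3) in bon123t ABA, 165 ± 10.8 TPM in bon123t mannitol and 266 ± 6.56 TPM in bon123t mock. In WT it was 558 ± 90.7 TPM after ABA, 787 ± 25.5 TPM after mannitol and 199 ± 19.9 TPM after mock. With median-of-ratios scaling the lowest sum was that of WT mock (189 ± 12.6 in bon123t mannitol and 181 ± 10.2 in WT mock), as it was with upper-quartile scaling (200.3 and 194). The make-up of the sum changed as well. NYC1 held 44.7% to 46.8% of it in bon123t ABA and 20.7% to 21.7% in WT ABA, and PAO held 14.2% to 17.0% in bon123t mannitol and 45.5% to 48.3% in WT mannitol. RCCR held at most 0.642% in bon123t ABA and 22.1% to 24.4% in WT mock. The ratio of PAO to RCCR, successive steps of the pathway, was 39.2 and 43.6 in the bon123t ABA libraries with RCCR above 0, 1.35 to 1.86 in bon123t mannitol and 3.28 to 4.24 in bon123t mock. In WT it was 3.23 to 4.83 after ABA, 4.27 to 5.42 after mannitol and 0.88 to 1.05 after mock.

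**Figure D5:**
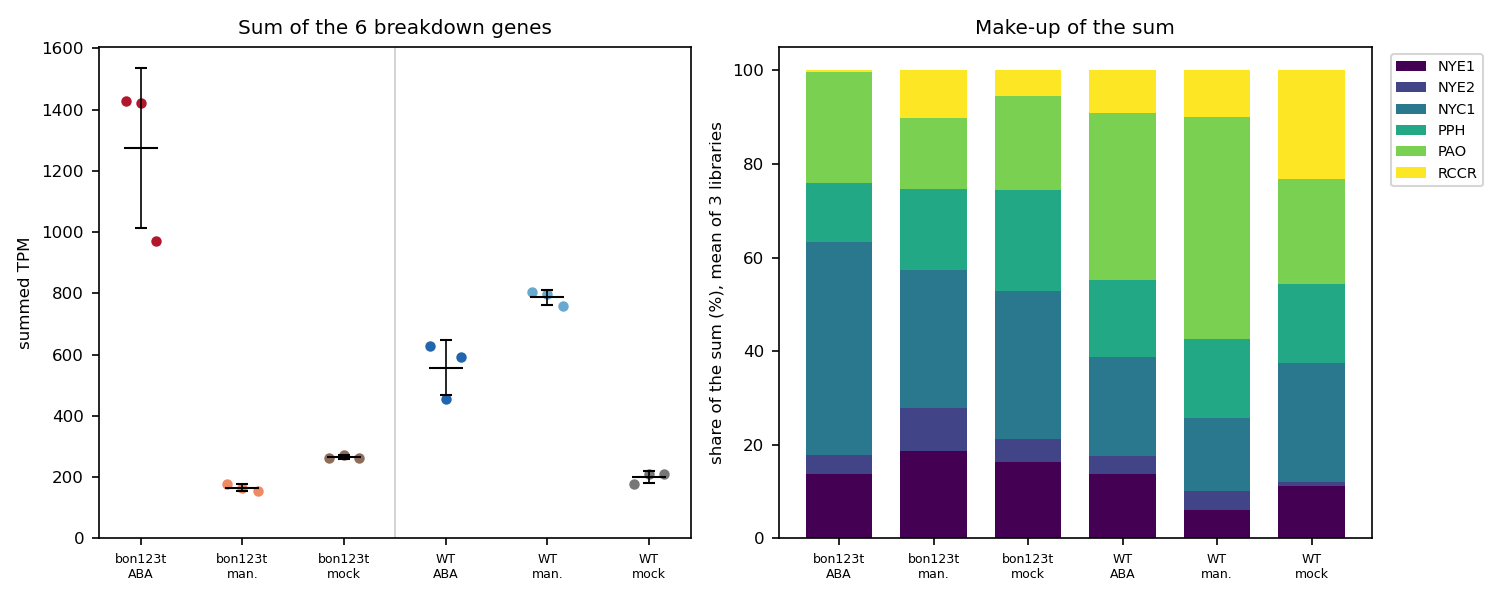
Left, summed TPM of the 6 breakdown genes in each library with mean and SD (n = 3). Right, mean share of each gene in that sum. In deposited TPM the sum is highest in bon123t ABA (1274 TPM) and lowest in bon123t mannitol (165 TPM), though WT mock is lowest with either scaling, and the RCCR share is largest in WT mock.

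The senescence markers behaved differently from each other. SAG12, a cysteine protease gene of late leaf senescence, was nearly silent. It had 0.67, 0.64 and 0.40 TPM in bon123t ABA, 0.08, 0 and 0.08 TPM in bon123t mannitol, 2.24, 1.06 and 2.94 TPM in WT ABA and 2.26, 0.63 and 0.25 TPM in WT mannitol. It was listed at 0 in all mock libraries of both genotypes, so no fold change against mock is given. Every WT ABA library was above every bon123t library, WT mannitol overlapped bon123t ABA, and bon123t mannitol was at 0.08 TPM or less.

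SAG13, a short-chain dehydrogenase gene switched on early in senescence and by oxidative stress, was high in the mutant whatever the treatment. It had 889, 1143 and 1076 TPM in bon123t ABA, 714, 726 and 559 TPM in bon123t mannitol and 801, 1049.7 and 874 TPM in bon123t mock. WT libraries had 376, 251 and 246 TPM after ABA, 353, 341 and 280.1 TPM after mannitol and 30.0, 17.3 and 22.9 TPM after mock. Every mutant library was above every WT library, and stressed WT plants were at 246 TPM or more where unstressed ones were at 30.0 TPM or less. In mock plants bon123t exceeded WT by 5.25 ± 0.20 (adjusted p = 1.26e-12), after ABA by 1.85 (adjusted p = 3.15e-07) and after mannitol by 1.03 (adjusted p = 0.000208). ABA gave 0.19 ± 0.20 in bon123t (adjusted p = 0.405) and a rise of 3.59 ± 0.20 in WT (adjusted p = 9.98e-10). Mannitol gave -0.45 in bon123t (adjusted p = 0.0615) and a rise of 3.77 in WT (adjusted p = 6.22e-10). The value in bon123t passed without the first WT ABA (adjusted p = 0.0394), first WT mock (adjusted p = 0.0405) or second WT mock library (adjusted p = 0.0417) and in a fit of its own groups (adjusted p = 0.0354). With median-of-ratios scaling the ABA value in bon123t became a rise of 0.88 (adjusted p = 0.0022) and the mannitol value 0.066 (adjusted p = 0.822). Its 250-base window, shown for the ACGTG and TTGAC matches on the minus strand, lies at chr2:12600664-12600913 on the plus strand, with the same letters in capitals.
SAG13: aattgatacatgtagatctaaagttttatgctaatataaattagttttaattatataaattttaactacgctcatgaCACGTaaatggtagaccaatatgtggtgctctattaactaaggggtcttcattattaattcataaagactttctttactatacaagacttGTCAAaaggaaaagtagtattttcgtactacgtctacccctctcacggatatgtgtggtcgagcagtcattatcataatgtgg
Near copies of SAG13 stand beside it on chromosome 2. AT2G29290 (86.9% coding identity) was at 0 to 0.37 TPM in bon123t and 13.7 to 60.7 TPM in WT, and AT2G29360 (84.7%) at 0.1 to 2.52 TPM in bon123t and 66.5 to 151 TPM in WT. Both ran opposite to SAG13. The less similar AT2G29340 (68.2%) was higher in bon123t mock (175 to 196 TPM) than in WT mock (59.5 to 67.1 TPM). After ABA it was lower in bon123t (15.2 to 16.6 TPM) than in WT (43.2 to 51.2 TPM). After mannitol the genotypes overlapped (117 to 125 TPM in bon123t and 105 to 135 TPM in WT). The labels do not say how reads were divided among these genes.

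Between genotypes, unstressed bon123t plants had 5 of 7 genes higher (NYE1, NYE2, NYC1, PPH and SAG13) and RCCR lower than unstressed WT, with 40.1% of all genes called higher and 33.7% lower. After ABA 6 were higher and RCCR lower, against 28.9% and 47.5% of all genes. After mannitol SAG13 was higher and the 6 enzymes lower, against 25.4% and 49.3% of all genes. That of NYE1 was not called with median-of-ratios scaling (-0.21, adjusted p = 0.157) or upper-quartile scaling (-0.22, adjusted p = 0.116). The median of the 7 genes was 0.76 in mock, 1.17 after ABA and -1.32 after mannitol, and that of all genes 0.13, -0.31 and -0.36. With median-of-ratios scaling the share of rises among all calls went to 49.9% after ABA and 49.0% after mannitol, against 37.8% and 34.0% as deposited. It moved the median gene by -0.14 in mock, 0.32 after ABA and 0.33 after mannitol.

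The interaction with mannitol was called lower for 6 of 7 genes and was not called for RCCR (-0.55, adjusted p = 0.568), while 17% of all genes had one called higher and 45.3% lower. The values were -4.21 ± 0.28 for SAG13, -4.09 ± 0.25 for PAO, -3.43 for NYE2, -2.95 for PPH, -2.06 for NYC1 and -1.54 for NYE1. With ABA the interaction was called for NYC1 (1.55), NYE2 (-1.23, adjusted p = 0.000276) and SAG13 (-3.40, adjusted p = 1.22e-07), and not for NYE1 (0.23, adjusted p = 0.375), PPH, PAO or RCCR. Over all genes it was called higher for 9.51% and lower for 43%. Scaling by median of ratios brought the interaction of NYE2 to -0.60 (adjusted p = 0.0373) and passed that of NYE1 at 0.84 (adjusted p = 0.00149). Under it, calls among all genes were rises in 52.1% of cases for the interactions with ABA and with mannitol, against 18.1% and 27.2% as deposited, and the median gene moved by 0.48 and 0.47.

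ABA and mannitol were also set side by side within each genotype. In bon123t ABA exceeded mannitol for 6 of 7 genes, with NYC1 at 3.54 and PAO at 3.51, and RCCR was lower (-1.99, adjusted p = 0.00479), against 31.1% and 39.4% of all genes. The RCCR value was -0.92 without the third bon123t ABA library (adjusted p = 5.75e-06), and its call was lost in a fit of its own groups (adjusted p = 0.0985). In WT, NYE1 was higher after ABA (0.66, adjusted p = 0.00315), and NYE2 (-0.53, adjusted p = 0.0175), PPH (-0.56, adjusted p = 0.00482) and PAO (-0.91, adjusted p = 0.000954) were lower, against 11% and 19.1% of all genes. NYC1 (-0.064, adjusted p = 0.798) and SAG13 (-0.18, adjusted p = 0.545) were not called. The NYE2 difference was lost without the second WT ABA library (-0.33, adjusted p = 0.0943) or the second WT mannitol library (-0.49, adjusted p = 0.0626), and with median-of-ratios scaling (-0.38, adjusted p = 0.0783). RCCR in WT ABA against WT mannitol (-0.64, adjusted p = 0.429) passed without the third bon123t ABA library (adjusted p = 0.000288). It also passed in a fit of its own groups (adjusted p = 0.0043). Median-of-ratios scaling moved the share of rises among all calls in WT to 55.9%, against 36.5% as deposited.

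Other genes of the pathway were counted from lists. Of 8 further genes of chlorophyll and catabolite metabolism, ABA in bon123t raised 3 and lowered 1 (15.1% and 55.5% of all genes), mannitol in bon123t raised 0 and lowered 4 (12.6% and 48.8%), ABA in WT raised 3 and lowered 2 (18.9% and 30.6%), and mannitol in WT raised 6 and lowered 2 (25.5% and 25%). The falls after mannitol in bon123t were thus near the share of all genes. CYP89A9, a cytochrome P450 that modifies the linear catabolites, rose by 0.73 after ABA in bon123t, and by 3.02 after ABA and 3.84 after mannitol in WT. MES16, the esterase that acts on them, rose by 1.55 after ABA in bon123t, and by 2.51 after ABA and 1.78 after mannitol in WT. SGRL, the dechelatase relative active in green leaves, fell after ABA in bon123t (-1.80) and in WT (-0.65). It also fell after mannitol in bon123t (-0.92) and in WT (-1.505). With median-of-ratios scaling, where rises were 51.3% of all calls against 20.6% as deposited, mannitol in bon123t raised 2 and lowered 2 of the 8. The median of the 8 genes was 0.08, -0.45, 0.25 and 0.64 in those 4 treatment comparisons. In mock plants SGRL (-3.21) and the chlorophyllase gene CLH1 (-5.32) were lower in bon123t than in WT.

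Of 19 transcription factor genes linked to senescence, ABA in bon123t raised 10 and lowered 6 (15.1% and 55.5% of all genes), mannitol in bon123t raised 1 and lowered 14 (12.6% and 48.8%), ABA in WT raised 11 and lowered 3 (18.9% and 30.6%), and mannitol in WT raised 12 and lowered 3 (25.5% and 25%). NAC019, a NAC factor of ABA responses, rose by 3.64 after ABA in bon123t, and by 4.46 after ABA and 2.69 after mannitol in WT. ABF4 (-1.56) and ABF3 (-1.28), bZIP factors that bind ABA-responsive elements, fell after mannitol in bon123t. In mock plants NAC6 (AT5G39610, also known as ORE1) was higher by 4.26 in bon123t, and PIF4 was lower (-5.36). With median-of-ratios scaling, where rises were 51.3% of all calls against 20.6% as deposited, mannitol in bon123t raised 1 and lowered 8 of the 19. The median of the 19 genes was 0.62, -0.64, 0.96 and 0.88 in those 4 treatment comparisons.

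Of 17 further senescence-associated genes, ABA in bon123t raised 10 and lowered 3 (15.1% and 55.5% of all genes), mannitol in bon123t raised 5 and lowered 7 (12.6% and 48.8%), ABA in WT raised 14 and lowered 1 (18.9% and 30.6%), and mannitol in WT raised 11 and lowered 2 (25.5% and 25%). The falls after mannitol in bon123t were no more frequent than over all genes. SAG29, a sugar transporter gene, rose by 5.03 after ABA and 1.61 after mannitol in bon123t, and by 5.11 after ABA and 4.82 after mannitol in WT. With median-of-ratios scaling, where rises were 51.3% of all calls against 20.6% as deposited, mannitol in bon123t raised 7 and lowered 5 of the 17. The median of the 17 genes was 1.18, -0.24, 1.69 and 1.78 in those 4 treatment comparisons. SEN1, a gene induced by darkness, fell after mannitol in bon123t (-3.07) and, by less, in WT (-0.88). The interaction with mannitol was called lower for 6 of the 8 metabolism genes, 16 of the 19 factors and 16 of the 17 senescence-associated genes, next to 45.3% of all genes, and higher for 2, 1 and 0. With median-of-ratios scaling it was called lower for 5, 13 and 13 of them. Under that scaling rises were 52.1% of all calls for this interaction, against 27.2% as deposited. Among these CYP89A9 stood at -4.50 ± 0.26 and ERD1, a chloroplast protease regulator gene, at -3.76 ± 0.37.

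The genes whose log2 levels ran most closely with each member were listed by Pearson r over the 18 libraries, as a description of libraries that share groups. For NYE1 they were UBC32 (0.99), PLIP2 (0.98) and the PP2C phosphatase gene ABI1 (0.98), for NYE2 BAC2 (0.98), SDRA (0.97) and CYP76C2 (0.97), and for NYC1 PLPZETA2, UMAMIT20 and INVH (each 0.98). For PAO they were AAO3, which encodes the last enzyme of ABA synthesis, UGT1 and ABCF2 (each 0.98), and for PPH CYP71B20, HYP1 and FHY (each 0.97). RCCR ran with RLK4 (0.97), ATMAP70-2 (0.95) and SCL27 (0.95), SAG13 with SSL6, SDRB and VTI12 (each 0.96), and SAG12 with SPDS3 (0.89), FLZ15 (0.88) and NTL8 (0.88). Since SAG12 was at 0 in all mock libraries and reached 1 TPM in 4 libraries, its r values rest largely on few stressed libraries. Among the 8 genes themselves r was 0.96 for NYE1 with NYC1 and -0.56 for RCCR with SAG13.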

How the data were processed

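RNA was taken from whole seedlings with Trizol and sequenced on a HiSeq 2500, per the labels' protocols. Per the submitters' processing notes, the tools were DESeq2 1.24.0, RSEM 1.3.1 and HISAT2 2.1.0, with TAIR10 as build and no roles stated. The authors deposited 1 table of TPM values for 18 libraries. Its header names no unit, which was read from the values. Of its genes 5905 were at 0 in every library and 250 loci lack a TAIR identifier, and a further line was not analysed here. Strandedness was not stated there.

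Values were taken as log2(TPM + 1), which makes fold changes of weak genes smaller than their ratios. Genes that reached 1 TPM in 3 or more libraries entered limma 3.58.1 (R 4.3.3, trend on, two-sided), fitted to 18 libraries with 6 group means, for 11 comparisons. Benjamini-Hochberg adjustment ran over all 21727 genes tested, and a gene was called at an adjusted p under 0.05. The planned test foresaw this unit. The fit was checked on simulated data. No label says that replicates were separate cultures, and the p-values then measure only the spread of these libraries, which may be technical.

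The 8 genes and the lists of other genes were chosen with earlier results of these data known. Of the 8 genes, 7 are reported in every comparison and SAG12 by its levels, because only the groups where it is high took it past the filter, and for each list at most 2 of the largest rises and 2 of the largest falls among called genes and for each member the 3 genes with a symbol and the highest r. Of 61 other genes written, 59 were kept, and 2 were dropped because locus and symbol disagreed. Names came from RefSeq, matched for 32547 identifiers. Sequences and their coordinates are those of TAIR10.1 and its own annotation, found by locus, since the table holds no coordinates. Alternatives were another pseudocount, no filter and a stricter one, 2 scalings, removal of ribosomal RNA, own-group fits, a replicate block, a robust fit and leaving out each library.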

Additional observations from a re-analysis of the deposited data

Results flagged for a closer look

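The response to treatment differed between bon123t and WT by a test of the difference itself for 9 of the gene and treatment pairs. Leaving SAG12 aside, these were 6 of 7 genes with mannitol and 3 of 7 with ABA. An interaction is the log2 response of bon123t minus that of WT, with limma's adjusted p over all genes tested. With mannitol it was -4.21 for SAG13 (adjusted p = 1.4e-08), -4.09 for PAO (adjusted p = 5.88e-09), -3.43 for NYE2 (adjusted p = 1.15e-08), -2.95 for PPH (adjusted p = 9.61e-09), -2.06 for NYC1 (adjusted p = 1.39e-06) and -1.54 for NYE1 (adjusted p = 1.35e-05). For NYC1, PPH and PAO the response itself was negative in bon123t and positive in WT, although that of NYC1 in bon123t was not called with upper-quartile scaling (-0.27, adjusted p = 0.0626). For NYE1 the response in bon123t was -0.48 as deposited and 0.020 and 0.034 with the 2 scalings. The median interaction of all genes with mannitol was -0.42, with 17% of all genes called higher and 45.3% lower. With ABA the interaction was -3.40 for SAG13, -1.23 for NYE2 and 1.55 for NYC1, and the median of all genes was -0.44. Over all genes the interaction with ABA was called higher for 9.51% and lower for 43%. SAG13 was at 801 to 1049.7 TPM in bon123t mock, against 17.3 to 30.0 TPM in WT mock, and stressed WT plants had 246 to 376 TPM.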

How the results depend on the processing

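The 88 member values (8 genes in 11 comparisons) were recomputed under 9 settings and with each of 18 libraries left out, 2365 values in all. Of these, 2276 kept direction and call, 31 lost the call, 42 gained it and 16 changed sign. Sign changes with median-of-ratios and upper-quartile scaling were those of mannitol against mock in bon123t for NYE1 (0.020 and 0.034) and SAG13 (0.066 and 0.081), of WT ABA against WT mannitol for NYC1 (0.093 and 0.021), and of the interaction with mannitol for RCCR (0.016 and 0.024). Leaving out 1 library gave -0.17 to 0.092 for NYC1 in WT ABA against WT mannitol and -0.092 to 0.20 for the interaction of PPH with ABA, neither called. Of the values that changed sign, NYE1 alone had been called. Called interactions with ABA numbered 3 of the 7 genes other than SAG12, while 9.51% of all genes had one called higher and 43% lower. Under both scalings they numbered 6, with 4 higher and 2 lower. Rises were 18.1% of all calls as deposited, 52.1% with median-of-ratios scaling and 41.8% with upper-quartile scaling. Leaving out 1 library gave 3 to 5 called interactions with ABA, with 5 without the third bon123t ABA library. The other counts of called genes stayed within 1.5 times. Replicate numbers did not pair samples: 45 correlations of same-numbered libraries lay between -0.24 and 0.26, and 7 were above 0.1. A replicate block left every count as it was. The 2365 values and the other counts include SAG12, which passed the filter only through the groups where it is high. They are therefore no support for SAG12. A depth could not be had from TPM, which limits statements on SAG12.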
